A study of Saccharomyces cerevisiae with 8 samples.

Results

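The 9 genes described here encode the EGO complex (MEH1, SLM4, GTR1 and GTR2) and the TORC1 kinase complex (TOR1, TOR2, KOG1, TCO89 and LST8) of Saccharomyces cerevisiae. They were picked by name around MEH1, which had been noticed for its SK1 to S96 ratio in these same RNA libraries, so the allelic ratio of MEH1 is given below as a description with no test. Of 7272 annotated transcripts, called rows here, 9 hold these genes. For 7 genes the row carries the gene's own name, whereas SLM4 and GTR2 lie on rows that merge them with a neighbouring open reading frame (YBR076C-A and YGR164W).

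The laboratory strain S96, isogenic to the reference strain S288c apart from its mating type, was crossed with the wild isolate SK1. RNA of the diploid S96 x SK1 hybrid (hybrids A and B) was compared with RNA of pools of haploid spores of that hybrid (spore pools A and B), with genomic DNA of the same samples. All were grown in YPD, a rich medium. In the hybrid both alleles share a nucleus, and their ratio there is the cis effect. In a pool each cell carries a single allele, and the change of the ratio from hybrid to pool is the local trans effect. The pools are mixtures of many genotypes that had passed selection for a single mating type and overnight growth, so allele frequencies in DNA were used to correct their RNA counts. Each group had 2 replicates. The labels do not state whether these came from separate crosses, so p-values measure the spread between these libraries. The 4 libraries held 45297678 to 52600018 allele-specific read pairs on annotated rows. A row was called when a difference was more than 1.5-fold at a false discovery rate below 0.2. Of the haploid-specific marker genes measured, 5 of 5 were called higher in the pools, by 1.85 to 4.59 on the log2 scale, as were 5 of 6 genes specific to mating type a and 0 of 4 specific to alpha.

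The EGO complex sits on the vacuolar membrane. Meh1, also called Ego1, anchors it there through lipids attached to its amino terminus, Slm4 (Ego3) is part of its scaffold, and Gtr1 and Gtr2 are Rag GTPases that pass amino acid sufficiency on to TORC1. TORC1 consists of the kinase Tor1 or Tor2 with Kog1, the counterpart of mammalian Raptor, Lst8 and Tco89, and promotes ribosome production and growth while it restrains autophagy. Tor2 and Lst8 also belong to TORC2, which acts on the plasma membrane and the actin cytoskeleton.

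The build of the row positions is not named in the sources used here, and on part of chromosome XI these positions were displaced from R64. The MEH1 row is listed at chrXI:451060-451660 on the plus strand (601 bp), whereas the R64 coding sequence of MEH1 runs over chrXI:451434-451988 (555 bp). Of the 203 coding rows that start beyond 200000 bp on this chromosome, 8 contained their own R64 coding sequence as listed, and 195 did after a shift of 354 to 358 bp. On the other chromosomes 87.6% to 97.5% of coding rows contained it as listed, and the row of TOR2, at 55645 on chromosome XI, did too. With a shift of 356 bp the MEH1 row lay at chrXI:451416-452016 and contained the whole coding sequence.

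Only pairs that differ between the strains can be assigned to an allele, so the listed SNPs between S96 and SK1 show where such pairs can arise. The SNP positions matched R64 on this stretch, since 66.9% of 1603 coding SNPs fell on the third codon position there, against 66.0% of 37791 on the other chromosomes. No listed SNP lay in the coding sequence of MEH1. The nearest were at 451133, 301 bp before its start codon, and at 452719, 731 bp after its last base. The row as listed, extended by 50 bp at both ends as in the counting, held 2 listed SNPs (451012 and 451133), and the shifted row held 0. These SNPs lie in the R64 coding sequence of the neighbouring gene MRPL13 (chrXI:450423-451217, minus strand). The stretch with these SNPs (chrXI:451000-451159) and the first 300 bases of the coding sequence (chrXI:451434-451733) are shown to compare them (R64 sequence from RefSeq, plus strand, 5′ to 3′, capitals mark the listed SNPs).
before the gene: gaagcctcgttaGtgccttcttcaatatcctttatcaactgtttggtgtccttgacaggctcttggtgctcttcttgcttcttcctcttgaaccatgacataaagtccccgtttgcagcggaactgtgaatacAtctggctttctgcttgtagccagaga
start of the coding sequence: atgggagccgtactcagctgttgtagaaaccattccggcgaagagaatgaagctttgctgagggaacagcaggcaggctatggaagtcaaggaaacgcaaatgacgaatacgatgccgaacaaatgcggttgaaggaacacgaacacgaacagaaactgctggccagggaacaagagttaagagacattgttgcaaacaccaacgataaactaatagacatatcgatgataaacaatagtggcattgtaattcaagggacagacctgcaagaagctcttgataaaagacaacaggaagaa
The first sequence has 2 capitals and the second none, so pairs that lay wholly inside the coding sequence crossed no listed SNP. Insertions and deletions and the SK1 coordinates of the row were not analysed here.

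**Figure D1:**
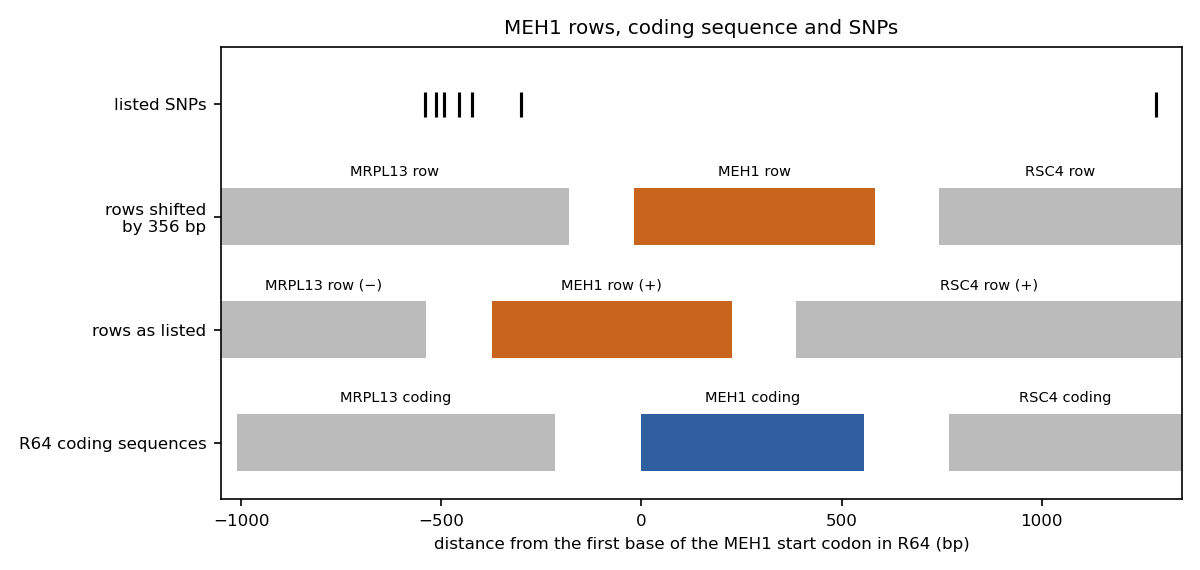
R64 coding sequences, annotation rows as listed and shifted by 356 bp, and listed SNPs around MEH1, by distance in bp from the first base of its start codon. The shifted MEH1 row spans the coding sequence, and the listed SNPs nearest to the start codon lie 301 and 422 bp before it.

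The study describes taking S96 gene sequences from R64 at the coordinates of an earlier transcript map. It does not state whether those coordinates were converted to R64 before counting. Rows of this stretch whose listed SNPs depend on the shift can be compared. All 6 rows with a listed SNP only at the shifted position held pairs, from 20 to 208938 over the 4 libraries. Of the 6 rows with a listed SNP only at the position as listed, 5 held under 10 pairs (CUT235, CUT239, FMP46, SNR69 and SUT234). The other one was MEH1, with 3880 pairs. The 3 rows with a listed SNP at neither position held 16 pairs (VPS51) and 0 pairs (YKL106C-A and YKL107W). All these rows were picked after the displacement was seen.

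Nearly all pairs of the MEH1 row came from SK1. The row held 930 SK1 and 6 S96 pairs in hybrid A and 907 and 0 in hybrid B. In the pools it held 935 SK1 and 5 S96 pairs (pool A) and 1093 and 4 (pool B). The SK1 share was thus at least 99.36% in each of the 4 libraries, with no overlap between the alleles. In hybrid A the SK1 count was 155 times the S96 count (exact 95% interval 70.9 to 423), and in hybrid B it was at least 302 times higher, set against a floor of 3 pairs. In pools A and B the ratios were 187 (79.8 to 577) and 273 (106 to 1005). These intervals cover counting error only, since pairs copied by PCR are not independent molecules. The fitted cis effect was 8.31 on the log2 scale (n = 2 hybrids), a description with no test. The change from hybrid to pool was -0.57 and rests on the 15 S96 pairs of all 4 libraries. It was -5.23 without hybrid A and 0.49 without hybrid B.

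The genomic DNA at the nearest listed SNP, 301 bp before MEH1, showed both alleles at similar frequency in 3 of 4 libraries. SK1 reads were 49.7% of 181 in hybrid A (exact 95% interval 42.2% to 57.2%), 52.8% of 127 in hybrid B (43.7% to 61.7%) and 50.0% of 210 in spore pool A (43.0% to 57.0%). In spore pool B they were 92.3% of 13 reads (63.97% to 99.8%). That library held 266380 reads at 10355 SNPs, against 4427895 to 9749494 reads at 64267 to 64272 SNPs in the others, and within 14000 bp of MEH1 its SK1 share was 52.1% of 305 reads. In the DNA of both hybrids and of spore pool A the 2 alleles were thus read at like frequency at this SNP. It lies in the R64 coding sequence of MRPL13 and outside the shifted MEH1 row. Alleles could not be told apart in the DNA of the MEH1 coding sequence, which held no listed SNP. The DNA columns carry no allele names, and the second was taken as SK1 because the median share of the first was above 0.5 in every library and the study describes a mapping bias to S288c.

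The MEH1 pairs were spread over the sequencing lanes more evenly than the depth of the lanes. Lanes 6, 7 and 8 gave 298, 312 and 320 SK1 pairs in hybrid A, 351, 314 and 242 in hybrid B, 307, 304 and 324 in pool A, and 333, 363 and 397 in pool B. Lane 8 was 3.35 to 4.52 times as deep as lane 6, yet held 0.69 to 1.20 times as many MEH1 pairs. Between 2.76% and 5.37% of rows had a lower lane ratio. Other EGO genes came near these values in single libraries, with 1.10 for GTR2 in hybrid A and 1.25 for GTR1 in pool B. The SK1 share was 99.002% or higher in each lane of each library.

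**Figure D2:**
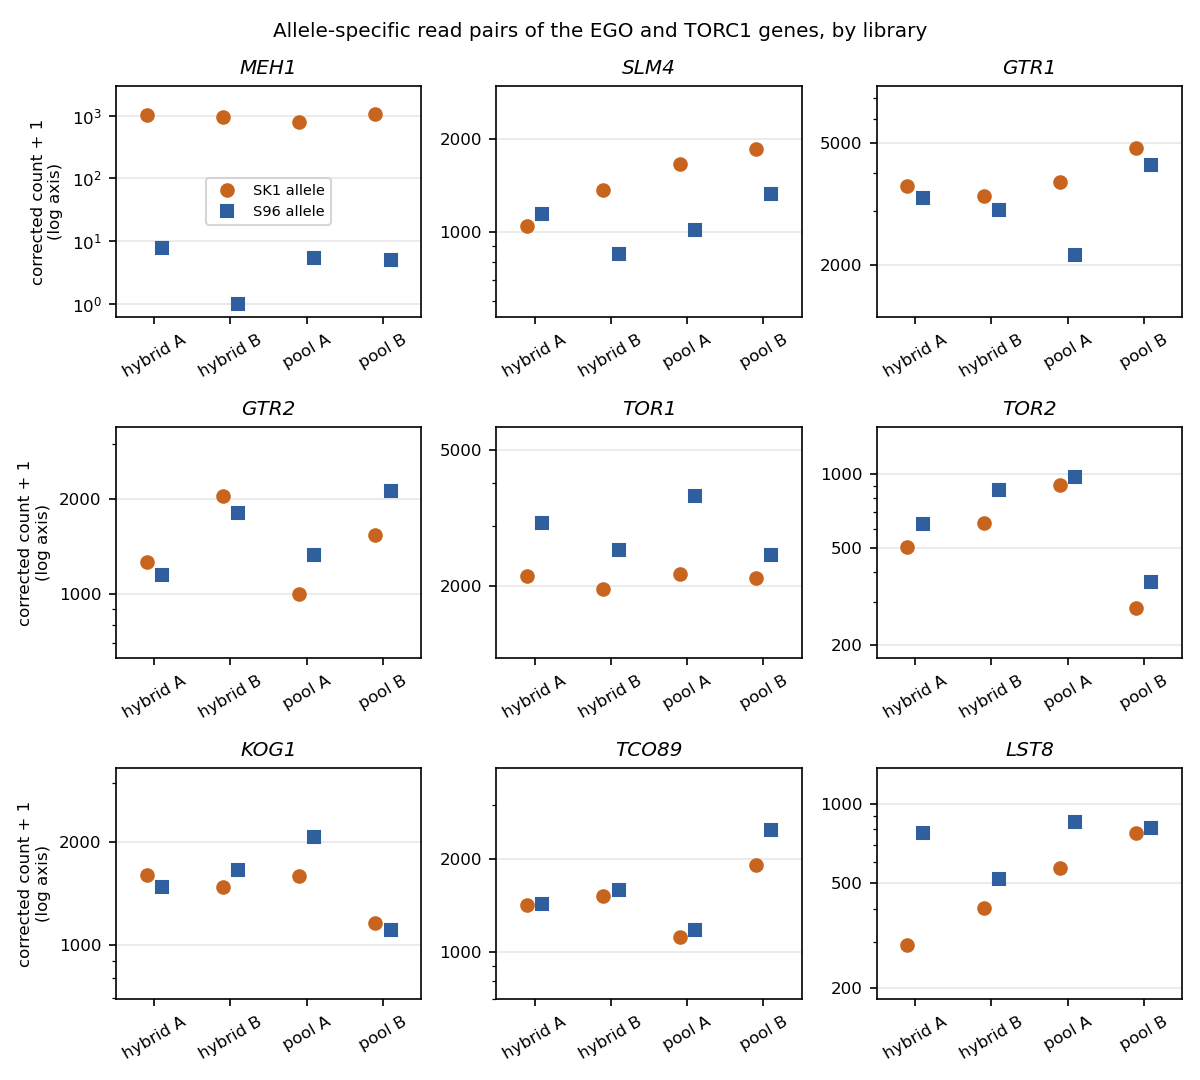
Corrected counts plus 1 (log axes, scaled per gene) of the SK1 and S96 alleles of the 9 genes in hybrids A and B and spore pools A and B; each point is 1 library. The MEH1 alleles are over 100 times apart in every library, GTR2 lies on different sides of equality in hybrids and pools, and TOR2 is lowest in pool B.

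The rows next to MEH1 did not share its ratio. MRPL13, whose row ended 164 bp before that of MEH1, had 1426 SK1 and 1273 S96 pairs in hybrid A and 1515 and 977 in hybrid B, with a cis effect of 0.40 (SE 0.25, adjusted p = 0.433, edgeR). RSC4, which encodes a subunit of the RSC chromatin remodeller and lies 160 bp to the right, had 4809 and 3504 pairs in hybrid A and 4356 and 3453 in hybrid B (cis effect 0.40, SE 0.15, adjusted p = 0.150), which missed the fold threshold. YKR005C was called towards S96 (cis effect -1.31, SE 0.53, adjusted p = 0.164). FOX2, the multifunctional enzyme of peroxisomal beta-oxidation, had 13 SK1 and 51 S96 pairs in hybrid A but 334 and 63 in hybrid B, and its effect of 0.29 (SE 1.71) had no clear direction. The non-coding row SUT235 gave 0.71 (SE 0.75) and CUT239 was listed at 0 pairs in all 4 libraries.

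Among 5899 rows with a mean corrected count of at least 100, cis effects above 5 on the log2 scale were found in 8 rows towards SK1, MEH1 among them, and in 18 towards S96. Of the 511 tested coding rows with 2 or fewer listed SNPs in the extended row, at any mean count, 6 had a cis effect above 5 towards SK1 and 7 towards S96. Cis calls were made in 12.9% of these rows and in 11.2% of the 4552 coding rows with more SNPs. The 5 rows whose 8 allele columns were most like those of MEH1 were the merged row of RPS8A and YBL071C-B (Pearson r = 0.992), RPL32 (0.988), FET5 (0.987), YCL049C (0.984) and MAL33 (0.975), given as a description over 8 columns of 4 libraries that share their depth and lanes. The columns of MEH1 differ mainly by allele, so rows picked in this way have a higher SK1 allele by construction. In the hybrids RPL32, a ribosomal protein gene, had 17507 SK1 and 1623 S96 pairs, and FET5, a vacuolar multicopper oxidase gene, had 4738 and 2317. The same correlation with the other 8 EGO and TORC1 genes ranged from -0.74 for TOR1 to 0.67 for SLM4.

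None of the other 3 EGO genes was called in cis, against 11.4% of the 6709 tested rows. SLM4, the scaffold subunit, gave 923 SK1 and 1014 S96 pairs in hybrid A and 1291 and 800 in hybrid B, so that the hybrids fell on either side of equality. Corrected for size factor and allele frequency, pool A held 1665 SK1 and 1012 S96 counts and pool B 1857 and 1326. SK1 was higher in 3 of 4 libraries. The cis effect was 0.28 (SE 0.28, adjusted p = 0.665, edgeR), and the local trans effect 0.32 (SE 0.39).

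GTR1, the Rag GTPase counterpart of mammalian RagA and RagB, was near equality in the hybrids. Hybrid A held 3212 SK1 and 2933 S96 pairs and hybrid B 3170 and 2840. Corrected counts were 3730 and 2148 in pool A and 4797 and 4228 in pool B, so SK1 was higher in 4 of 4 libraries and the pools differed more from each other than the hybrids did. The cis effect was 0.14 (SE 0.18, adjusted p = 0.735) and the local trans effect 0.34 (SE 0.25, adjusted p = 0.932), both from edgeR.

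GTR2, the partner GTPase of Gtr1, lay on different sides of equality in hybrids and pools. Hybrid A held 1121 SK1 and 1020 S96 pairs and hybrid B 1938 and 1708. Pool A held 1261 and 1458 pairs and pool B 1672 and 1998. The SK1 share was 52.4% and 53.2% in the hybrids and 46.4% and 45.6% in the pools, so the groups did not overlap. The log2 ratio of corrected counts was 0.16 ± 0.03 in hybrids and -0.44 ± 0.03 in pools (SD, n = 2 each). The local trans effect of -0.60 (SE 0.33) missed the threshold (adjusted p = 0.878, edgeR, over all rows). It was -0.07 (SE 0.36) with lanes 6 and 7 only and -1.39 (SE 0.58, adjusted p = 0.916) with lane 8 only. With each pool's own DNA it was -1.17 (SE 0.54, adjusted p = 0.918), and the DNA of pool B, which the main correction left out, had 69.8% SK1 of 126 reads within 14000 bp (exact 95% interval 61.0% to 77.7%). Across all 6709 tested rows, 9.12% had opposite signs in hybrids and pools in this way. The groups did not overlap in 34.9% of rows and for 3 of the 9 genes (GTR1, GTR2 and TCO89).

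Of the 6 listed SNPs in the GTR2 row, 4 lay in its coding sequence. The coding stretch that holds 2 of them, at chrVII:827552-827791, is shown. So is the stretch around the SNP of the LST8 coding sequence, at chrXIV:620339-620398 (R64 from RefSeq, plus strand, 5′ to 3′, capitals mark the listed SNPs).
GTR2: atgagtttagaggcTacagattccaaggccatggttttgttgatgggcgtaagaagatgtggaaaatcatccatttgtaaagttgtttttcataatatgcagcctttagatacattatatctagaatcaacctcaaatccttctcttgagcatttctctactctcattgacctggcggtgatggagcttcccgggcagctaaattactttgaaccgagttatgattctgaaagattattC
LST8: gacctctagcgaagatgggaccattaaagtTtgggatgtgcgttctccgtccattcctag
The GTR2 stretch has its 2 SNPs near its ends, and the LST8 stretch has 1 SNP.

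TOR1 and TOR2 encode the kinases, and for both S96 was higher in all 4 libraries. TOR1 held 1889 SK1 and 2714 S96 pairs in hybrid A and 1847 and 2402 in hybrid B, and 2633 and 4164 in pool A and 2205 and 2407 in pool B. Its coding sequence held 38 listed SNPs. The cis effect was -0.45 (SE 0.20, adjusted p = 0.208, edgeR), which missed both thresholds, and the local trans effect was -0.04 (SE 0.28). TOR2, which alone of the 2 kinases also works in TORC2, held 447 and 554 pairs in hybrid A and 595 and 817 in hybrid B. Its cis effect was -0.38 (SE 0.35, adjusted p = 0.627). TOR1 and TOR2 coding sequences agree in 69.3% of aligned positions and those of GTR1 and GTR2 in 55.3%.

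KOG1 and TCO89 were close to equality. KOG1, which recruits substrates to TORC1, held 1417 SK1 and 1311 S96 pairs in hybrid A and 1395 and 1566 in hybrid B, on either side of equality, with a cis effect of -0.03 (SE 0.24). TCO89 held 1253 and 1262 pairs in hybrid A and 1439 and 1500 in hybrid B, with a cis effect of -0.04 (SE 0.23). In the pools KOG1 gave 1830 and 2489 pairs in pool A and 1149 and 1147 in pool B, and TCO89 gave 1311 and 1383 in pool A and 1940 and 2528 in pool B. Neither local trans effect was called (-0.13, SE 0.34, and -0.19, SE 0.33).

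LST8, a WD-repeat subunit of both TOR complexes, had the largest cis effect of the 8 other genes in the fit of all libraries, but not without hybrid A. Hybrid A held 257 SK1 and 684 S96 pairs and hybrid B 379 and 489. Pool A held 666 and 1017 and pool B 776 and 830. S96 was higher in 4 of 4 libraries, but the SK1 share ran from 27.3% in hybrid A to 48.3% in pool B, and the hybrids overlapped the pools. The cis effect was -0.89 (SE 0.40, adjusted p = 0.224, edgeR), which missed the threshold of a false discovery rate of 0.2. Without hybrid A it was -0.37, smaller in size than those of SLM4 (0.69), TOR2 (-0.46) and TOR1 (-0.38) in the same fit. Without hybrid B it was -1.41. With DESeq2 it was -0.89 (adjusted p = 0.172, Wald test) and was called, as were 989 of 6709 rows. With lanes 6 and 7 only the cis effect of LST8 was -0.70, against -0.95 for TCO89 and 0.84 for SLM4. With lane 8 only it was -1.16. The local trans effect of LST8 was 0.56 (SE 0.55).

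Of the 8 genes other than MEH1, 0 were called in cis and 2 had an unadjusted p under 0.05. Across the 6709 tested rows 11.4% were called, 4.46% towards SK1 and 6.96% towards S96, and 1315 had an unadjusted p under 0.05. The median absolute cis effect of the 8 genes was 0.22, against 0.33 over all rows, and the median SE was 0.24. Of the 8 genes 0 were called for a local trans effect, where 0.149% of all rows were called, and 0 had an unadjusted p under 0.05, against 391 rows in all. With DESeq2 1 of the 8 genes, LST8, was called in cis, where 989 of the 6709 rows were called. For a local trans effect it called 0 of the 8 genes and 58 rows.

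**Figure D3:**
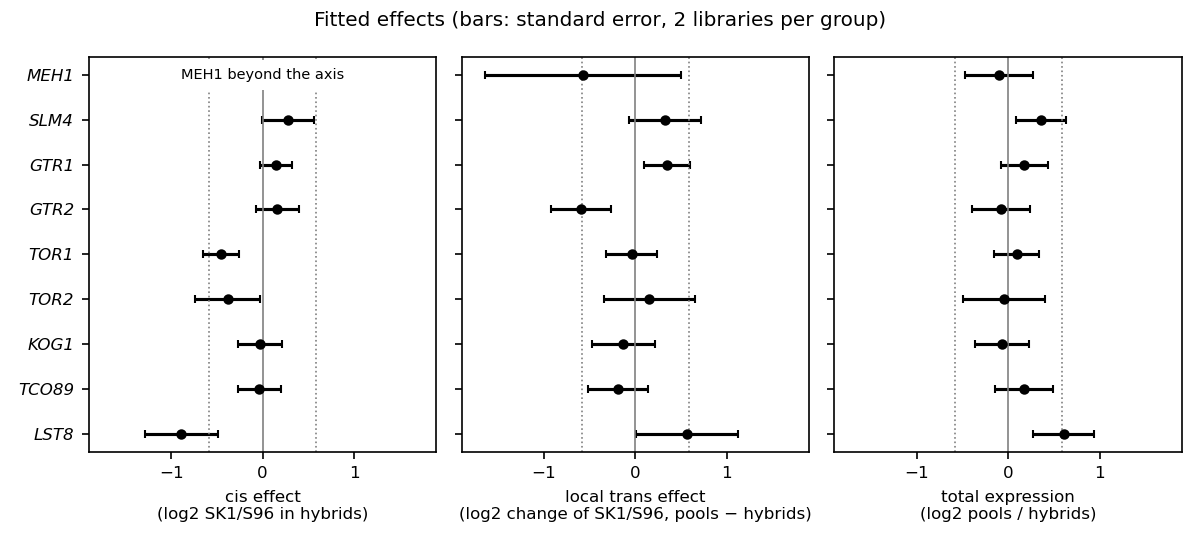
Fitted cis effect, local trans effect and total expression change of the 9 genes on log2 axes, from 2 libraries per group, with bars of 1 standard error and dotted lines at the 1.5-fold threshold. MEH1, at 8.31, is beyond the cis axis, LST8 lies farthest from 0 among the other cis effects, and the total expression changes run from -0.10 to 0.60.

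Total expression was taken as the sum of both alleles. For MEH1 this sum was nearly all SK1, with 15 S96 pairs in all libraries together. It thus describes the SK1 allele and is not independent of the counts behind the ratio for which MEH1 was noticed. The normalised total of MEH1 was 1057 and 960 in the hybrids and 798 and 1081 in the pools, so the groups overlapped. Its log2 change of -0.10 is given as a description with no test. This sum counts allele-specific pairs and so depends on the number of SNPs in a row, and levels are not compared between genes for that reason. Fewer cells with a transcript and less RNA per cell cannot be told apart in such libraries.

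LST8 was higher in both pools (1429 and 1583) than in both hybrids (1062 and 918), a log2 change of 0.60 (SE 0.33, adjusted p = 0.738, edgeR). SLM4 was likewise higher in the pools (2560 and 3088 against 2187 and 2212), by 0.36 (SE 0.27, adjusted p = 0.835). These were the 2 of 9 genes whose groups did not overlap, against 36.6% of all rows. TOR2 had the widest spread between replicates, with 1883 in pool A and 651 in pool B against 1130 and 1494 in the hybrids. That 2.89-fold gap between pools was exceeded by 6.83% of rows. Without pool A the log2 change of TOR2 was -1.003 and without pool B it was 0.52, so the direction rested on a single pool. Of the 8 genes other than MEH1, 0 were called in the fit of all libraries, where 1.15% of rows were called (1.07% higher and 0.0745% lower in the pools). Of these 8 genes 0 had an unadjusted p under 0.05, against 544 rows. DESeq2 called 0 of the 8 too, and 261 of 6709 rows.

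The lanes of a library often differed in the allelic ratio of these genes. Lanes 6 and 7 agreed closely in every library, with a Spearman correlation of the log2 ratio of 0.946 to 0.966 across rows, whereas lanes 6 and 7 together correlated with lane 8 at 0.273 to 0.508. Lane 8 held 62.4% to 69.2% of a library. Of 32 pairs of a gene (MEH1 aside) and a library, 17 differed by more than 10 percentage points between lane 8 and lanes 6 and 7, against 40.7% of the 22045 rows and libraries with at least 100 pairs in both lane sets. For TCO89 in hybrid B the SK1 share was 29.8% and 33.2% in lanes 6 and 7 and 61.2% in lane 8. For SLM4 in hybrid A it was 77.1%, 70.5% and 41.2%, and for LST8 in hybrid A 42.3%, 42.7% and 17.1%. With lanes 6 and 7 alone the cis effect of TCO89 was -0.95 (SE 0.31, adjusted p = 0.0961, edgeR) and was called, as were 565 of 6491 rows. Lane 8 alone gave 0.54 (SE 0.34) for TCO89. The sources do not state what distinguishes the lanes.

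**Figure D4:**
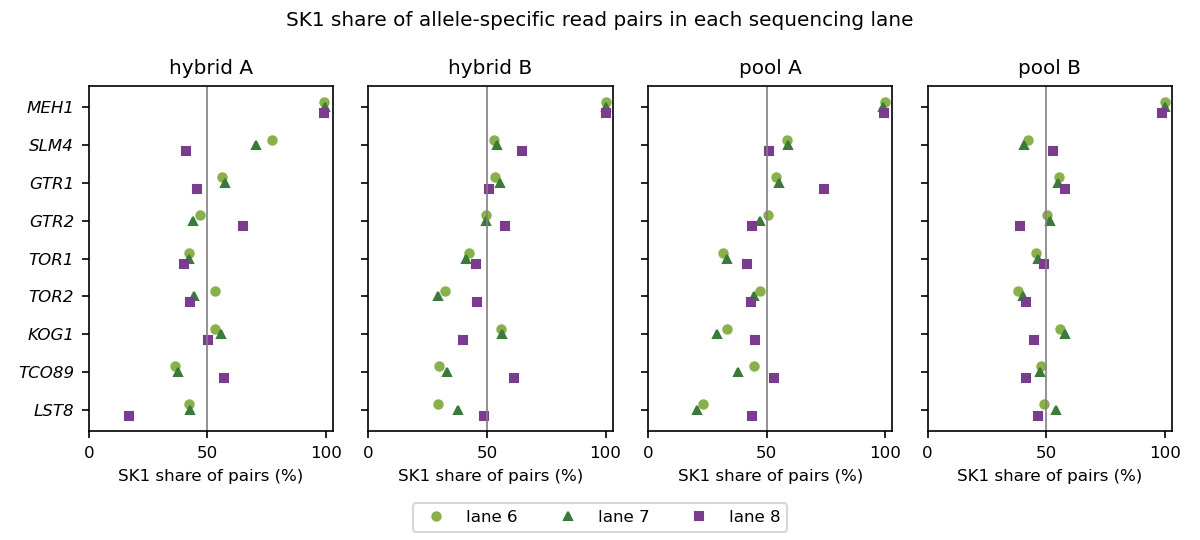
SK1 share of allele-specific read pairs in percent for the 9 genes in lanes 6, 7 and 8 of each library, with a line at 50%. Lanes 6 and 7 lie close together and lane 8 often apart, as for TCO89 in hybrid B (29.8%, 33.2% and 61.2%), while MEH1 stays at 99.002% or above in every lane.

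The DNA of spore pool A, which corrected the RNA of both pools, was close to equality at most of these loci. The SK1 share over the SNPs in the row was 54.6% of 317 reads for GTR1, 49.8% of 1099 for GTR2, 49.4% of 6154 for TOR1 and 49.1% of 692 for TCO89. It was 48.2% of 309 for LST8, 46.3% of 4918 for KOG1 and 45.5% of 1847 for TOR2. SLM4 stood lowest, at 33.7% of 504 reads (exact 95% interval 29.6% to 38.0%) in its row and 40.0% of 17945 within 14000 bp. Without the correction for allele frequency, its local trans effect was -0.20 in place of 0.32.

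Rows that overlapped those of the 8 other genes were checked. The study made strand-specific libraries, but the strand setting of the counting is not given in the sources used here. KOG1 overlapped none. GTR1 shared 117 bp with NDI1 on the other strand, TOR1 885 bp with YAE1, TOR2 101 bp with EAP1, TCO89 409 bp with CUT891 and GTR2 61 bp with the transfer RNA row tR(UCU)G2. NDI1 (cis effect -0.39, SE 0.20), YAE1 (-0.34, SE 0.19) and EAP1 (0.002, SE 0.20) were not called in cis. CUT891 was not called either, but with 7 to 45 pairs per library and an SE of 8.18 it could hardly have been. The tR(UCU)G2 row was called towards S96 (cis effect -1.46, SE 0.37, adjusted p = 0.0213, edgeR), and so was the YBR076C-A row, which touched that of SLM4 by 1 bp (-3.52, SE 0.74, adjusted p = 0.00585). LST8 shared 93 bp with MRP7 and 1 bp with CUT346, both listed at 0 pairs in all 4 libraries.

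Beyond the 9 genes, 35 other genes of the pathway lay on 36 rows, of which 35 were tested: EGO2, amino acid inputs to the Gtr GTPases, TORC1 outputs and the TORC2 side. In cis 1 row was called towards SK1 and 1 towards S96, and 0 were called for a local trans effect or for total expression, against 11.4%, 0.149% and 1.15% of all tested rows. FPR1, whose product binds rapamycin, was called towards SK1, with 18342 SK1 and 12001 S96 pairs in hybrid A and 16122 and 9508 in hybrid B (cis effect 0.69, SE 0.11, adjusted p = 4.0e-04, edgeR). NPR3, on the row named RMD11, encodes a subunit of the SEA subcomplex that restrains TORC1 when amino acids are scarce. It was called towards S96, with 716 and 1231 pairs in hybrid A and 570 and 1046 in hybrid B (cis effect -0.83, SE 0.29, adjusted p = 0.0992). Both kept their direction in the pools. The median absolute cis effect of the 35 rows was 0.29, against 0.33 over all rows. EGO2, the remaining EGO subunit, gave -0.04 (SE 0.16).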

How the data were processed

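RNA of 2 hybrids and 2 spore pools and genomic DNA of the same 4 samples were analysed. Per the submitters' processing notes, GSNAP and HTSeq 0.5.4p5 were used with R64 (sacCer3). The authors mapped read pairs to both genomes jointly, kept pairs specific to a strain and counted those lying wholly inside a row extended by 50 bp. The deposited RNA values are raw counts per row, allele and lane, and the deposited DNA values are read counts per SNP and allele. Row positions in the deposited annotation come from an earlier transcript map. SNP positions were read from the second column of the deposited tables, with which 66.0% of coding SNPs outside chromosome XI fell on the third codon position, against 17.2% with the third column.

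Lanes 6, 7 and 8 were summed, and pairs on no annotated row (26.8% to 36.4%) were left out. TMM size factors came from summed alleles with edgeR 4.0.16 in R 4.3.3. Allele frequencies in the DNA of spore pool A were smoothed with locfit 1.5.9.12 (28000 bp window, SNPs with at least 10 reads), corrected for the mapping bias and used for both pools, with 0.5 for the hybrids. Rows were tested if both alleles had at least 1 pair and corrected counts averaged 10 or more. Quasi-likelihood fits of edgeR held terms for cis, local trans, ploidy and replicate, and a second fit was made for total expression. The SE of these effects, that of MEH1 included, was derived from the F statistic of the test. It is the absolute log2 effect divided by the square root of F. P-values were adjusted with the Benjamini-Hochberg method over all 6709 rows, and a call needed more than a 1.5-fold difference at a false discovery rate below 0.2. Scripts were tested on simulated data. Binomial intervals were exact, at 95%. Allele lengths in SK1 were not used.

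Named were all 9 genes, rows overlapping theirs, the 3 nearest rows on each side of MEH1, the 5 rows most like MEH1 by Pearson correlation (corrected counts averaging 100 or more), and other pathway genes called in a test. The members and lists were chosen with earlier results of these data known. Alternatives were DESeq2 1.42.0, its size factors, other filters, allele frequencies and replicate terms, and each library left out. Single lane sets were added, and the shift of rows on chromosome XI was estimated, after seeing the data. That shift was used only to count SNPs. Sequences were read from RefSeq R64 with Python 3.11.15.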

Additional observations from a re-analysis of the deposited data

Results flagged for a closer look

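GTR2 was flagged because its SK1 allele was higher in both hybrids and its S96 allele in both pools. The log2 ratio of corrected counts was 0.14 in hybrid A, 0.18 in hybrid B, -0.41 in pool A and -0.46 in pool B, and the local trans effect was -0.60 (adjusted p = 0.878, edgeR), so the difference did not pass the test over all rows. The lanes of GTR2 moved with it: in hybrid A the SK1 share was 46.8% and 43.7% in lanes 6 and 7 and 65.1% in lane 8, and in spore pool B it was 50.3%, 51.6% and 38.7%. Fitted on lanes 6 and 7 only the local trans effect was -0.07 (SE 0.36), and on lane 8 only it was -1.39 (SE 0.58, adjusted p = 0.916).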

How the results depend on the processing

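For the 9 genes, 339 effects were recomputed under alternatives, with the total of MEH1 included and its ratio left out. In 300 direction and call were kept, in 35 the direction turned and in 4 a call was gained. The cis effect of MEH1, a description, ranged from 7.25 to 12.97 over 15 alternatives. The upper value, without hybrid A, depends on the prior count, since hybrid B has 0 S96 pairs. The change of MEH1 from hybrid to pool, -0.57 in the main fit, was -5.23 without hybrid A and 0.49 without hybrid B. With lanes 6 and 7 only it was 0.37. This change was not tested and is left out of the lists below. Of the 8 other genes 0 were called in cis in the main fit. With DESeq2 LST8 was called, among 989 of 6709 rows, and with lanes 6 and 7 only TCO89 was called, among 565 of 6491 rows. The other calls gained came from fits that left 1 library in a group (LST8 in cis without hybrid B, TOR2 in total expression without spore pool A). They are not read as results.

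Leaving out each library, the effect turned for SLM4 (cis -0.14 to 0.69, local trans -0.089 to 0.74), KOG1 (cis -0.17 to 0.11, local trans -0.35 to 0.093, total -0.45 to 0.24), MEH1 (total -0.34 to 0.11) and TOR1 (local trans -0.31 to 0.23, total -0.081 to 0.25). Total expression also turned for GTR1 (-0.15 to 0.46), GTR2 (-0.44 to 0.30), TOR2 (-1.003 to 0.52) and TCO89 (-0.38 to 0.58). Without the allele frequency correction local trans effects turned for SLM4 (-0.20), TOR1 (0.056) and TOR2 (-0.062).

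With lanes 6 and 7 only, cis effects turned for GTR2 (-0.14) and KOG1 (0.31), local trans effects for SLM4 (-0.31), GTR1 (-0.22), TCO89 (0.63) and LST8 (-0.14), and total expression for TOR1 (-0.028) and TOR2 (0.55). With lane 8 only, cis effects turned for GTR1 (-0.10) and TCO89 (0.54), local trans effects for TOR1 (0.055) and KOG1 (0.074), and total expression for MEH1 (0.034), GTR2 (0.014) and KOG1 (0.14). The cause was not tested.

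Over all rows, 766 were called in cis, 10 for local trans and 77 for total expression. The cis count was 71 with each pool's own DNA. The local trans count was 58 with DESeq2, 171 without the frequency correction, 0 with each pool's own DNA and 17 with a 14000 bp window. It was 48 without hybrid A and 18 without hybrid B. The total expression count was 261 with DESeq2, 39 with lane 8, 41 without hybrid B, 777 without spore pool A and 874 without spore pool B.

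Deviations of the hybrid and the pool with the same replicate letter were nearly uncorrelated across rows (0.0154 for totals and -0.00394 for allele ratios). The labels do not state whether samples with the same letter share an origin. With the replicate block 0 genes were called in each of the 3 tests, and 398, 2 and 98 rows in all. With no replicate block 0 genes were called, and 337 and 2 rows. The median DNA share in spore pool A was 49.1% in the row and in the extended row and 47.5% within 14000 bp. Few SNPs (2 or 3 in the rows of SLM4, GTR1 and LST8) and 2 libraries per group limit these values.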
